A study of Mus musculus with 4 samples.

Results

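The mouse genome names many zinc-finger genes Zfp followed by a number, and the expression of these genes was examined in the cerebellum of WT and *Kdm3b*+/- mice. A gene was included if its TPM, summed over the entries of a gene identifier, averaged 2 or more over the 4 libraries. TPM is a level per transcript length, scaled to a fixed total per library. Of 394 Zfp genes among 24532 gene identifiers, 315 reached this level, 69 lay under it and 10 were listed at 0 in every library. The genes were thus chosen by their mean TPM over both genotypes, so their level is a description. Each library was made from bulk RNA of tissue enriched for granule cells (GCE), dissected by hand from slices of the cerebellar vermis of 1 mouse, with 2 WT and 2 *Kdm3b*+/- mice. The *Kdm3b*+/- mice were heterozygous for a gene-trap vector inserted in *Kdm3b*, which encodes an H3K9 demethylase, and descend from 1 embryonic stem cell line. The line was backcrossed to C57Bl/6N and later crossed to C57Bl/6J, so the background mixes both substrains, and the study used adult males with WT littermates as controls. The labels give the tissue only as cerebellum and give neither age nor sex.

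Most Zfp proteins carry C2H2 fingers, in which a pair of cysteines and a pair of histidines hold a zinc ion and the residues between them contact DNA. Many also carry a KRAB domain near the start of the protein, which binds the corepressor TRIM28, and TRIM28 in turn brings SETDB1, an enzyme that methylates H3K9. KRAB zinc-finger proteins are known for silencing retroelements and for keeping imprints, and their genes sit in tandem clusters. Other Zfp names belong to unrelated proteins, such as CCCH proteins that bind mRNA and proteins that bind double-stranded RNA.

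The coding sequences of the features that define these classes are shown for genes described below, read from the GENCODE annotation of GRCm38. In the KRAB A-box, a window of 37 codons, capitals mark the codons that match at the 17 positions searched. The window of *Zfp983* is chr17:21658919-21659029 (+ strand, exon 2 of 3), that of *Zfp677* is chr17:21393182-21393292 (+ strand, exon 3 of 4), that of *Zfp109* is chr7:24234361-24234471 (- strand, exon 2 of 3) and that of *Zfp69* is chr4:120935077-120935187 (- strand, exon 4 of 6).
Zfp983: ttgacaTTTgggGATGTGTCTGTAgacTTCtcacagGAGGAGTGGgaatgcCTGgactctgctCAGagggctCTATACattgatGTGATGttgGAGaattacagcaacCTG
Zfp677: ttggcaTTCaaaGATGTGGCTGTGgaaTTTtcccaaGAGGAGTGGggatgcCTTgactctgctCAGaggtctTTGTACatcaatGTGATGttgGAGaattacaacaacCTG
Zfp109: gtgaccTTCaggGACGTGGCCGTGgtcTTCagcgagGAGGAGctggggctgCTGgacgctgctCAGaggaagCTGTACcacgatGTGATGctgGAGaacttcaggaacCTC
Zfp69: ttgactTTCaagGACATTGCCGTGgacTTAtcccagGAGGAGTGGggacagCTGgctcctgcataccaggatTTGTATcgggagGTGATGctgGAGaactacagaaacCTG
*Zfp983* and *Zfp677*, which lie in 1 cluster, matched all 17 positions and shared 92 of 111 bases. *Zfp109* and *Zfp69* matched 16 each, and shared 79 bases with each other.

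In the fingers, capitals mark the codons of the residues that bind zinc. A C2H2 finger of *Zfp983* (chr17:21661716-21661778, + strand, exon 6 of 6) and one of *Zfp423* (chr8:87783211-87783273, - strand, exon 4 of 8) are shown beside a CCCH finger of *Zfp36* (chr7:28378158-28378217, - strand, exon 2 of 2).
Zfp983: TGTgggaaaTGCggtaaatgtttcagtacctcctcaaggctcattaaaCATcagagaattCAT
Zfp423: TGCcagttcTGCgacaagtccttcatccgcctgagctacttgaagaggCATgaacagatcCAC
Zfp36: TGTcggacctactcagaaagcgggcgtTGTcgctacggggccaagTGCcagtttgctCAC
By these patterns, 308 of the 315 genes had a coding transcript in the annotation. Of these, 184 had a KRAB A-box, called at 10 or more matching positions, and 124 did not. The cut was set after the scores were seen, and 8 genes scored 10 or 11 while 30 scored 8 or 9. The KRAB score was the best over all coding transcripts of a gene, while fingers were counted in the longest coding one. Both can thus come from different transcripts, as in *Zfp983* above. At least 1 C2H2 finger was found in 299 genes, with a median of 11 and a maximum of 37. The other 7 genes were 3 long non-coding RNAs, 2 pseudogenes, and *Zfp939* and *Zfp33b*, for which no coding sequence was found.

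Aligned bases ranged from 4.92 to 6.69 Gb per library, and the mean coverage of the 315 genes ranged from 1.30 to 739 with a median of 28.7. *Kdm3b* had 9.10 and 11 TPM in WT mice and 8.30 and 7.90 TPM in *Kdm3b*+/- mice (log2 fold change of -0.27, adjusted p = 0.424, limma), lower in both *Kdm3b*+/- mice, though the difference did not pass the test. The 6 granule cell markers had mean levels of at least 17.6 TPM. WT mouse 1 stood apart in other markers. The summed TPM of 8 Purkinje cell markers was 1515 in WT mouse 1, against a range of 639 to 845 in the other 3 libraries. The sums of the *Kdm3b*+/- mice, 845 and 689, lay above the 639 of WT mouse 2. All 8 markers had a lower mean in *Kdm3b*+/- mice, beside 60.4% of all genes tested. Only 2 of the 8 were lower without overlap, beside 32% of all genes. The sum of 5 interneuron markers was 456 against 205 to 260, and that of 3 red cell genes was 591 against 136 to 156. The part of these differences in the Zfp results was not tested. In bulk tissue, fewer cells of a type and less RNA per cell cannot be told apart.

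None of the 315 Zfp genes was differentially expressed (DEX) between *Kdm3b*+/- and WT mice. DEX genes had an adjusted p under 0.05 over the 13652 genes whose TPM averaged 1 or more, by limma on log2(TPM + 1), and a fold change over 1.2. Of all genes tested, 0.461% were DEX. The lowest adjusted p of a Zfp gene was 0.0965, for *Zfp983*. At an unadjusted p under 0.05, 38 Zfp genes (12.1%) were lower in *Kdm3b*+/- mice, where 11.5% of all genes tested were, and 3 (0.952%) were higher, where 5.47% of all genes were. The share of lower genes was thus near the background, and that of higher genes was below it. With 2 mice against 2, an exact permutation test cannot give a p below 0.33. In simulated data, 0% of genes changed by a log2 fold of 0.5 were called DEX, and 34.3% of those changed by 1. A Zfp gene that was not DEX is thus not shown to be unchanged. The limma p-values rest only on the spread between these 4 mice, with the variance of each gene drawn toward that of genes of like level.

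The differences were small and mostly in 1 direction. The mean of 244 Zfp genes (77.5%) was lower in *Kdm3b*+/- mice, beside 60.4% of all genes tested. Both *Kdm3b*+/- libraries were below both WT libraries for 147 Zfp genes (46.7%), where this held for 32% of all genes, and both were above for 25 (7.94%), where 19.2% of all genes were. The median log2 fold change of the Zfp genes was -0.15, beside -0.07 for all genes, and single genes ranged from -0.84 to 0.53. The summed TPM of the Zfp genes was 6124 and 6682 in WT mice and 5911 and 5921 in *Kdm3b*+/- mice, so the groups did not overlap. The medians within a group differed too, by 0.10 between the WT mice and by 0.01 between the *Kdm3b*+/- mice. The log2 fold changes were below -0.26 for 84 Zfp genes (26.7%) and above 0.26 for 10 (3.17%), beside 23.7% and 10.9% of all genes. Over the 12460 genes with a mean TPM of 2 or more, the level set for the Zfp genes, 0.49% were DEX, 60.8% had a lower mean, 32.6% were lower and 19.5% higher without overlap, and 12% were lower and 5.68% higher at an unadjusted p under 0.05.

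These values depended on how the libraries were scaled and on which were used. With FPKM, median-ratio scaling, quantile normalization or a correction for transcript length and GC content, the median of all genes moved to between -0.01 and 0.01 and that of the Zfp genes to -0.08, -0.08, -0.04 and -0.08. Without WT mouse 1, the library with high Purkinje cell, interneuron and red cell sums, the medians were -0.20 for the Zfp genes and -0.10 for all genes with TPM, and no Zfp gene was DEX. The number of Zfp genes lower at an unadjusted p under 0.05 was 61 (19.4%) without that mouse, 20 (6.35%) without WT mouse 2, 13 (4.13%) without *Kdm3b*+/- mouse 1 and 26 (8.25%) without *Kdm3b*+/- mouse 2. The shares of all genes were 17.5%, 7.50%, 4.41% and 10.3%, so these counts moved with the background. The difference between both medians was -0.08 with TPM and ranged from -0.08 to -0.05 under these scalings. The share of Zfp genes with p under 0.05 that were lower in *Kdm3b*+/- mice was 92.7% with TPM, 82.9% with FPKM, 82.4% with median-ratio scaling, 74.1% with quantile normalization and 78.4% with the correction. Over all genes tested, the same shares were 67.8%, 51.7%, 50.3%, 48.6% and 51.6%.

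**Figure D1:**
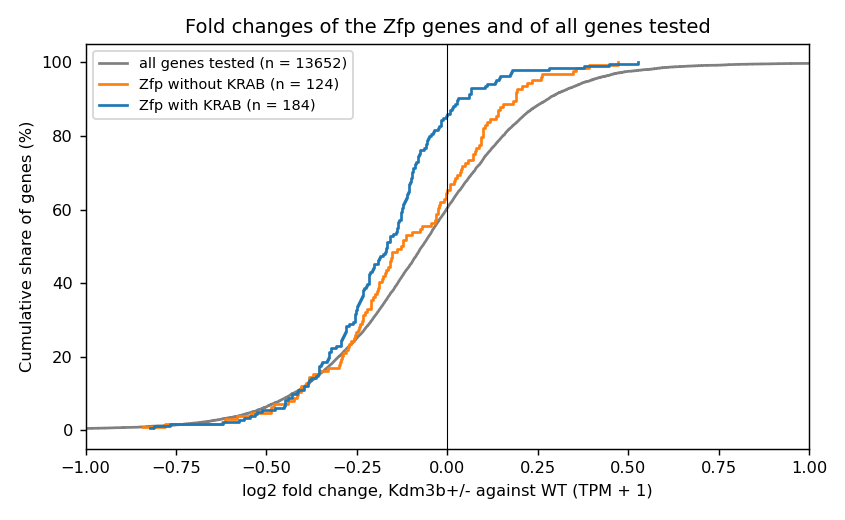
Cumulative share of genes (y axis, percent) by log2 fold change of TPM + 1 in *Kdm3b*+/- against WT mice (x axis, drawn from -1 to 1, with the few genes beyond not shown), for all genes tested (gray, 13652), Zfp genes without KRAB (orange, 124) and Zfp genes with KRAB (blue, 184). The blue line reaches 85.9% at a fold change of 0, the orange line 65.3% and the gray line 60.4%.

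Zfp genes with a KRAB A-box and those without one were then described apart. The mean of 158 of 184 KRAB genes (85.9%) was lower in *Kdm3b*+/- mice, and that of 81 of 124 genes without KRAB (65.3%). The groups did not overlap, with lower levels in *Kdm3b*+/- mice, for 104 KRAB genes (56.5%) and 42 others (33.9%), and with higher levels for 6 (3.26%) and 17 (13.7%). Of all genes tested, 60.4% had a lower mean, and 32% were lower and 19.2% higher without overlap. The lower shares of the genes without KRAB were thus near those of all genes. The median log2 fold change was -0.17 for KRAB genes and -0.12 for the others. The summed TPM of the KRAB genes was 2493 and 2623 in WT mice and 2243 and 2238 in *Kdm3b*+/- mice. That of the genes without KRAB was 3589 and 4019 in WT mice and 3631 and 3643 in *Kdm3b*+/- mice, so these sums overlapped. The difference between the classes was not tested, since genes are not replicates of a genotype. The median of the genes without KRAB depended on both WT mice, as it was -0.02 without WT mouse 2 and -0.21 without WT mouse 1, while that of the KRAB genes ranged from -0.20 to -0.16 over all 4 libraries left out in turn. With quantile normalization, 60 KRAB genes (32.6%) were lower and 14 (7.61%) higher with no overlap, and 26 (21%) and 30 (24.2%) of the others, where 23.8% of all genes were lower and 26.5% higher.

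The genes were also described by their number of fingers, and the medians followed no single order. A lower mean in *Kdm3b*+/- mice was found for 12 of 26 genes with 2 C2H2 fingers or fewer, 27 of 34 with 3 to 5, 50 of 69 with 6 to 9, 95 of 118 with 10 to 14 and 55 of 61 with 15 or more. The median log2 fold changes of these groups were 0.03, -0.23, -0.14, -0.14 and -0.21. KRAB and finger number are linked, as 46 of the 61 genes with the most fingers were KRAB genes. At 3 to 9 fingers, 37 of 45 KRAB genes and 40 of 58 others had a lower mean, with medians of -0.19 and -0.14. At 10 to 14 fingers, 78 of 90 and 17 of 28 did, with medians of -0.14 and -0.13. At 15 or more fingers, 42 of 46 and 13 of 15 did, with medians of -0.21 and -0.21. KRAB transcripts also had a lower GC content, with a median of 42.1% beside 50.4% for the others and 50.6% for all genes tested. Within the genes of GC content below 41.7%, 78 of 104 Zfp genes (75%) had a lower mean, beside 54.1% of all genes. Between 41.7% and 49.1%, 84 of 102 Zfp genes (82.4%) did, beside 58.8% of all genes, and above it 79 of 104 (76.0%), beside 64.0%.

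The 10 Zfp genes with the lowest log2 fold changes, among those whose groups did not overlap, were *Zfp36*, *Zfp109*, *Zfp983*, *Zfp385c*, *Zfp677*, *Zfp423*, *Zfp937*, *Zfp365*, *Zfp346* and *Zfp975*. Of these, 5 were KRAB genes. *Zfp983*, the gene with the lowest p, had 8.14 and 8.24 TPM in WT mice and 4.36 and 4.12 TPM in *Kdm3b*+/- mice. Both *Kdm3b*+/- libraries lay close together and well below the WT libraries, which also lay close together (log2 fold change of -0.81 ± 0.16 SE, adjusted p = 0.0965, limma). *Zfp677*, of the same cluster on chromosome 17, had 3.02 and 3.38 TPM in WT and 1.97 and 1.05 TPM in *Kdm3b*+/- mice. Its *Kdm3b*+/- libraries differed from each other by more than its WT libraries (log2 fold change of -0.77 ± 0.22, adjusted p = 0.174), and the value was -0.50 without *Kdm3b*+/- mouse 2. *Zfp109*, a KRAB gene of a chromosome 7 cluster, had 3.60 and 4.95 TPM in WT and 1.83 and 2.10 TPM in *Kdm3b*+/- mice (-0.82 ± 0.20, adjusted p = 0.131).

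Of the other KRAB genes in this group, *Zfp937* had 2.90 and 2.90 TPM in WT mice and 1.48 and 1.59 TPM in *Kdm3b*+/- mice (log2 fold change of -0.62 ± 0.18, adjusted p = 0.175). *Zfp975* had 9.47 and 11.1 TPM in WT mice and 7.03 and 6.13 TPM in *Kdm3b*+/- mice (-0.57 ± 0.17, adjusted p = 0.175). In both genes the distance between the genotypes was larger than that between mice of 1 genotype. *Zfp109*, *Zfp677* and *Zfp937* were low in level, where log2(TPM + 1) understates a change.

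Zfp genes with higher levels in both *Kdm3b*+/- mice were fewer, and their fold changes were smaller. The 10 with the highest values were *Zfp69*, *Zfp644*, *Zfp428*, *Zfp951*, *Zfp518a*, *Zfp326*, *Zfp652os*, *Zfp133-ps*, *Zfp688* and *Zfp770*. *Zfp69*, a KRAB gene named as a diabetes candidate in mouse crosses, had 5.96 and 6.81 TPM in WT mice and 8.84 and 10.4 TPM in *Kdm3b*+/- mice. It was the only one of these with a log2 fold change over 0.5 (0.53 ± 0.17, adjusted p = 0.200). *Zfp428*, a gene with 1 finger found, had 49.0 and 56.9 TPM in WT and 65.2 and 74.2 TPM in *Kdm3b*+/- mice (0.39 ± 0.15, adjusted p = 0.246). *Zfp951*, a KRAB gene, had 4.30 and 3.75 TPM in WT and 5.73 and 5.31 TPM in *Kdm3b*+/- mice (0.38 ± 0.17, adjusted p = 0.306). *Zfp326*, whose protein takes part in mRNA splicing with RNA polymerase II, had 7.66 and 8.08 TPM in WT and 10.9 and 9.72 TPM in *Kdm3b*+/- mice. The remaining 4, *Zfp652os*, *Zfp133-ps*, *Zfp688* and *Zfp770*, had log2 fold changes from 0.26 to 0.33, and the first 2 are a long non-coding RNA and a pseudogene. Single libraries moved 3 of these by over 1.5 times. *Zfp652os* was at 0.17 without *Kdm3b*+/- mouse 2, *Zfp133-ps* at 0.20 without WT mouse 2 and at 0.20 without *Kdm3b*+/- mouse 1, and *Zfp688* at 0.18 without *Kdm3b*+/- mouse 1.

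**Figure D2:**
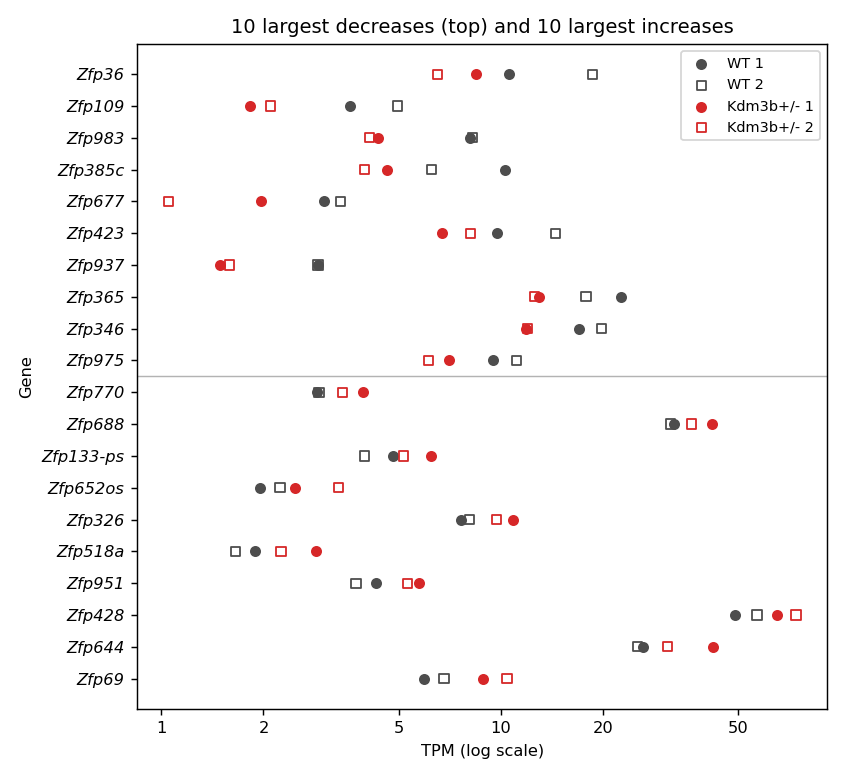
TPM of each library (x axis, log scale) for the 10 Zfp genes with the lowest log2 fold change (upper block) and the 10 with the highest (lower block) among those whose groups did not overlap, with WT mice in gray and *Kdm3b*+/- mice in red, and circles and squares for mice 1 and 2. The genes were chosen for groups that do not overlap; the distance between the colors is widest relative to that within a color in *Zfp983* and *Zfp937*.

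Some Zfp proteins act on RNA rather than DNA. *Zfp36* (tristetraprolin) and its relatives *Zfp36l1* and *Zfp36l2* bind AU-rich elements of mRNAs and promote their decay. *Zfp36* had 10.6 and 18.6 TPM in WT mice and 8.45 and 6.51 TPM in *Kdm3b*+/- mice, and WT mouse 2 was far above the rest (log2 fold change of -0.84 ± 0.25, adjusted p = 0.175). Without WT mouse 2 its log2 fold change was -0.46. *Zfp36l2* had the same order, with 4.15 and 6.61 TPM in WT and 2.97 and 4.03 TPM in *Kdm3b*+/- mice (-0.49 ± 0.23, adjusted p = 0.316). *Zfp36l1* had 3.68 and 3.86 TPM in WT and 4.03 and 4.17 TPM in *Kdm3b*+/- mice, close to each other and in the opposite order (0.10 ± 0.17, adjusted p = 0.799).

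The fingers of *Zfp346* bind double-stranded RNA, and *Zfp385a*, *Zfp385b* and *Zfp385c* have fingers of the same type. All 4 had a lower mean in *Kdm3b*+/- mice and 3 did not overlap, where 60.4% and 32% of all genes did so, and 4 genes are too few to set against these shares. *Zfp346* had 17.1 and 19.8 TPM in WT mice and 11.9 and 12 TPM in *Kdm3b*+/- mice (log2 fold change of -0.58 ± 0.16, adjusted p = 0.154). *Zfp385a* had 24 and 22 TPM in WT and 16.7 and 17.1 TPM in *Kdm3b*+/- mice (-0.42 ± 0.15, adjusted p = 0.222). In both genes the mice of a genotype lay close together. *Zfp385c* had 10.3 and 6.25 TPM in WT and 4.61 and 3.96 TPM in *Kdm3b*+/- mice, with WT mouse 1 well above the other 3 (-0.78 ± 0.23, adjusted p = 0.174), and its log2 fold change was -0.46 without that mouse. *Zfp385b*, the highest of the 4, had 64.5 and 85.3 TPM in WT and 62.0 and 66.9 TPM in *Kdm3b*+/- mice, and its groups overlapped. *Zfp385c* shares 1384 bases with *Nkiras2* on the opposite strand, a gene with a mean of 36.2 TPM and a log2 fold change of 0.04, and the sources do not say whether strand was used.

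*Zfp644* and *Zfp518a* are associated with the H3K9 methyltransferases G9a and GLP, which write the mark that KDM3B removes. Both were higher in both *Kdm3b*+/- mice, where 19.2% of all genes were, and 2 genes are too few to set against this share. The groups of *Ehmt2* and *Ehmt1*, which encode G9a and GLP, overlapped, with log2 fold changes of -0.14 and -0.12. *Zfp644* had 26.3 and 25.3 TPM in WT mice and 42.3 and 31 TPM in *Kdm3b*+/- mice, with *Kdm3b*+/- mouse 1 far above the rest (log2 fold change of 0.47 ± 0.17, adjusted p = 0.238). Without that mouse the value was 0.25. *Zfp518a*, at a low level, had 1.88 and 1.65 TPM in WT and 2.85 and 2.25 TPM in *Kdm3b*+/- mice (0.36 ± 0.19, adjusted p = 0.374), and the value was 0.23 without *Kdm3b*+/- mouse 1. *Zfp518b*, the third gene of this list, averaged 0.870 TPM and was not tested. *Zfp532*, *Zfp592* and *Zfp687*, which form the Z3 complex with ZMYND8, were all lower in both *Kdm3b*+/- mice, where 32% of all genes were. These 3 genes are again too few to set against that share. *Zfp687* had 19.1 and 21.7 TPM in WT and 13.5 and 16.1 TPM in *Kdm3b*+/- mice (-0.44 ± 0.16, adjusted p = 0.237), and the log2 fold changes of *Zfp532* and *Zfp592* were -0.17 and -0.15.

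The KRAB genes known best for imprints and retroelements did not differ detectably. *Zfp445*, which keeps imprints together with *Zfp57*, had 27.5 and 28.5 TPM in WT mice and 28.3 and 27.9 TPM in *Kdm3b*+/- mice (log2 fold change of 0.0078 ± 0.14, adjusted p = 0.984). *Zfp809*, which silences murine leukemia virus elements, had 14.4 and 17.7 TPM in WT and 17.3 and 14.8 TPM in *Kdm3b*+/- mice (-0.0013 ± 0.17, adjusted p = 0.998). In both genes the libraries of the genotypes were interleaved. *Zfp57* and *Zfp568* averaged 0.847 and 1.58 TPM, under the level set for this group.

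Among genes of neural development, 5 of 7 had a lower mean in *Kdm3b*+/- mice (71.4%, beside 60.4% of all genes) and 3 of these did not overlap (42.9%, beside 32%), shares near those of all genes. *Zfp423*, which is needed for the cerebellar vermis to form, had 9.78 and 14.5 TPM in WT mice and 6.72 and 8.14 TPM in *Kdm3b*+/- mice (log2 fold change of -0.62 ± 0.21, adjusted p = 0.210), and -0.36 without WT mouse 2. Its paralogue *Zfp521* had 32.9 and 46.1 TPM in WT and 28.1 and 31.2 TPM in *Kdm3b*+/- mice (-0.38 ± 0.18, adjusted p = 0.318). In both, WT mouse 2 was the highest and the WT mice were far apart. *Zfp365*, whose protein binds DISC1, had 22.6 and 17.8 TPM in WT and 13 and 12.5 TPM in *Kdm3b*+/- mice (-0.61 ± 0.17, adjusted p = 0.157), with WT mouse 1 the highest. The groups of *Zfp536*, *Zfp335* and *Zfp292* overlapped, with log2 fold changes of -0.26, -0.33 and 0.03, and that of *Zfp703* was 0.12. *Zfp503*, *Zfp462* and *Zfp804a* were under the level of 2 TPM.

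The ubiquitin ligase *Zfp91* had 17.4 and 16.6 TPM in WT mice and 20.04 and 19.8 TPM in *Kdm3b*+/- mice (log2 fold change of 0.22 ± 0.15, adjusted p = 0.466). *Zfp598*, the ligase that marks collided ribosomes, overlapped between the groups (0.03 ± 0.19). The SUMO ligase *Zfp451* was lower in both *Kdm3b*+/- mice (-0.23 ± 0.16, adjusted p = 0.470). *Zfp143*, an activator that binds a promoter element called SBS, had 21.5 and 22.7 TPM in WT and 16.1 and 17.7 TPM in *Kdm3b*+/- mice, with the genotypes well apart (-0.37 ± 0.15, adjusted p = 0.262). The symbols *Zfp76* and *Zfp385d* of the role lists were not analysed here.

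**Figure D3:**
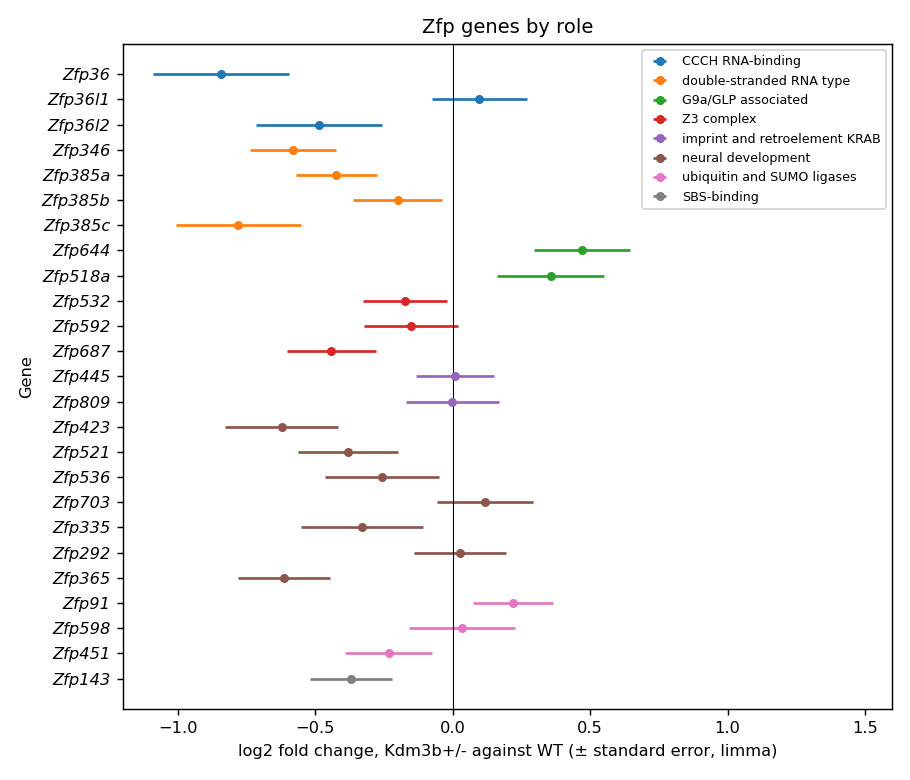
Log2 fold change of TPM + 1 in *Kdm3b*+/- against WT mice (x axis) for the 25 Zfp genes of the role lists (y axis, colored by list), with the standard error of the limma fit as bars. The 4 genes of the double-stranded RNA type lie below 0, both genes associated with G9a/GLP lie above it, and *Zfp445* and *Zfp809* lie on it.

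The Zfp genes with the highest mean levels were not those with the largest differences. *Zfp706*, *Zfp414*, *Zfp637*, *Zfp207* and *Zfp771* averaged 284, 209, 170, 123 and 113 TPM. *Zfp207*, whose protein binds microtubules and the spindle checkpoint protein BUB3, was the only one of them with a lower mean in *Kdm3b*+/- mice, with 123 and 146 TPM in WT and 107 and 114 TPM in *Kdm3b*+/- mice (log2 fold change of -0.27 ± 0.14, adjusted p = 0.348). The other 4 had log2 fold changes from 0.10 to 0.19. Among all the Zfp genes, a lower mean was found for 43 of 64 with a mean TPM under 5, 139 of 167 between 5 and 20, and 62 of 84 above 20. Just inside the level of 2 TPM were *Zfp85os*, *Zfp111* and *Zfp518a*, with means of 2.12, 2.12 and 2.16 TPM, and just outside were *Zfp229*, *Zfp804a* and *Zfp974*, with 1.99, 1.98 and 1.97 TPM.

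Neighbouring Zfp genes were grouped into clusters where no gap between them exceeded 200 kb. The 19 clusters of 4 or more genes held 131 of the 315 genes, 111 of them KRAB genes. The median log2 fold change was -0.17 for clustered genes and -0.14 for the other 184, of which 73 were KRAB genes. All 13 genes of the cluster from *Zfp84* to *Zfp146* (chr7:29768552-30169727) had a lower mean in *Kdm3b*+/- mice, with a median of -0.20, and 6 did not overlap. All 11 genes of the cluster that holds *Zfp677* and *Zfp983* (chr17:21383748-21994366) did as well, with a median of -0.22 and 8 that did not overlap. Over all 315 Zfp genes, 77.5% had a lower mean and 46.7% were lower without overlap, beside 60.4% and 32% of all genes tested. The clusters given here were picked from the 19 after their values were seen. All genes also had a lower mean in the smaller clusters that start with *Zfp787*, *Zfp607b*, *Zfp954*, *Zfp868*, *Zfp709* and *Zfp653*. In the cluster from *Zfp180* to *Zfp428* (chr7:24081897-24515682), which holds *Zfp109*, 10 of 11 genes were lower and *Zfp428* at its end was higher. The largest KRAB cluster on chromosome 13, from *Zfp429* to *Zfp273* (chr13:67389328-67827000), was less uniform, with 8 of 13 genes lower and a median of -0.07. The cluster of *Zfp579*, *Zfp524*, *Zfp784* and *Zfp580* on chromosome 7 holds no KRAB gene, and all 4 had a higher mean, with a median of 0.12. The cluster coordinates are those of the deposited gene entries. Of all identifiers with a GRCm38 position, 99.6% lay on the same chromosome and 90.4% started within 1 kb of it.

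**Figure D4:**
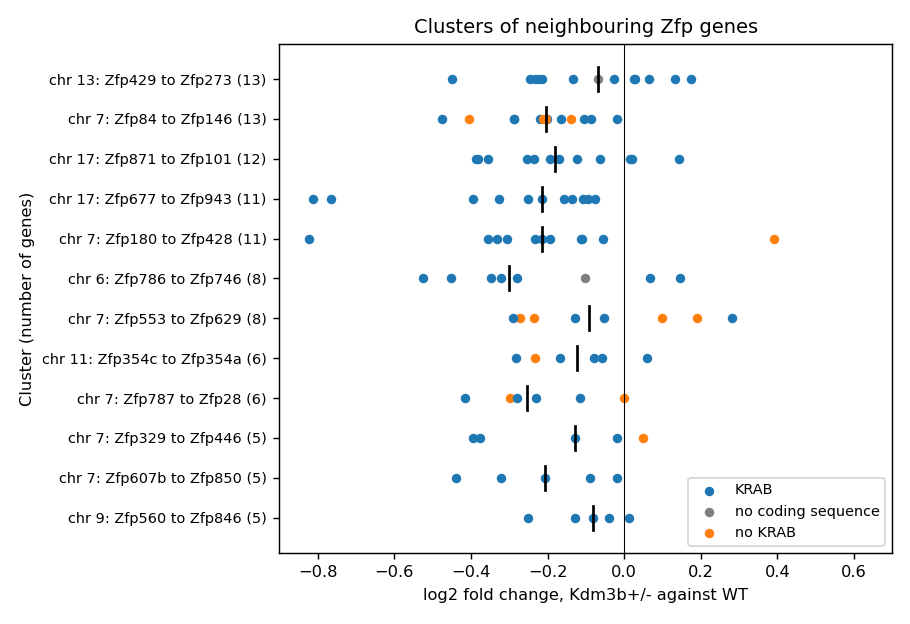
Log2 fold change of TPM + 1 in *Kdm3b*+/- against WT mice (x axis) of each Zfp gene in the 12 largest clusters (y axis, with the number of genes), colored by KRAB, with a black bar at the median of the cluster. All genes of the clusters from *Zfp84* to *Zfp146*, *Zfp677* to *Zfp943*, *Zfp787* to *Zfp28* and *Zfp607b* to *Zfp850* lie below 0.

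Reads of near-identical genes can be assigned to the wrong copy. The proteins of *Zfp97* and *Zfp960*, *Zfp955a* and *Zfp955b*, *Zfp874a* and *Zfp874b*, and *Zfp85* and *Zfp273* were at least 90% identical, and none of these is among the genes given above by their values. The chromosome 13 cluster given above holds *Zfp874a*, *Zfp874b*, *Zfp85* and *Zfp273*, so its counts are uncertain too. Only proteins of the 315 genes were compared, and near-identical copies outside them were not searched for. Of the 315 genes, 22 overlapped another gene that averaged 1 TPM or more, in 17 cases on the opposite strand, and their values are uncertain. *Zfp687* and *Zfp385b* are among them, overlapping *Pi4kb* and *Gm13944*, and so are *Zfp85os* and *Zfp809*. *Kdm3b* lies on chromosome 18, where 8 of the Zfp genes lie. The closest, *Zfp24*, was 10.8 Mb away, with 41.2 and 48.3 TPM in WT mice and 39.9 and 38.7 TPM in *Kdm3b*+/- mice (log2 fold change of -0.18 ± 0.15). The 8 log2 fold changes ranged from -0.48 (*Zfp438*) to 0.09 (*Zfp608*).

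The genes through which KRAB proteins act, and other genes of H3K9 methylation, were taken as a list of 20, of which 18 were tested and none was DEX. Of these 18, 14 (77.8%) had a lower mean in *Kdm3b*+/- mice, beside 60.4% of all genes. The median log2 fold change was -0.13, beside -0.07 for all genes. Without overlap, 4 were lower (22.2%) and 4 higher (22.2%), beside 32% and 19.2% of all genes. The list was thus more often lower in mean than all genes, but no more often lower without overlap. *Trim28* had 96.3 and 127 TPM in WT mice and 89.4 and 95.8 TPM in *Kdm3b*+/- mice (-0.26 ± 0.16, adjusted p = 0.435), and the libraries of *Setdb1* overlapped (-0.14 ± 0.18). *Atf7ip*, the partner that stabilizes SETDB1, had 14.1 and 18.3 TPM in WT and 9.83 and 8.44 TPM in *Kdm3b*+/- mice and the lowest p of the list (-0.76 ± 0.18, adjusted p = 0.127). The 4 genes higher in both *Kdm3b*+/- mice were the heterochromatin genes *Cbx1* and *Cbx5*, the remodeler *Chd3* and *Mphosph8*, with log2 fold changes of 0.21, 0.22, 0.23 and 0.15, while the groups of *Cbx3*, the other heterochromatin gene of this family, overlapped (-0.05). Beside *Trim28* and *Atf7ip*, the H3K9 methyltransferases *Suv39h1* and *Suv39h2* were lower in both, with -0.25 and -0.23.

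Other zinc-finger families were compared by the same values. Of 31 Zbtb genes that averaged 2 TPM or more, 26 had a lower mean in *Kdm3b*+/- mice and the median log2 fold change was -0.21. Of 15 Zscan and Zkscan genes, 12 did, with a median of -0.17, and of 14 Zc3h genes, which carry CCCH fingers, 9 did, with a median of -0.08. Promoters, from 250 bases before to 50 after the start of RefSeq transcripts of GRCm38, were matched for 263 of the Zfp genes. The letters ACTACAA, part of the SBS bound by *Zfp143*, were found on either strand in 6.54% of Zfp promoters, 8.79% of those of KRAB genes, 3.86% of those of all genes tested and 3.24% of all promoters. The letters CCGGAAG, a core bound by ETS factors, were found in 20.2%, 23.6%, 16.1% and 8.86%. Promoters of Zfp genes without KRAB held them in 3.73% and 14.9%, near the shares of all genes tested. The CRE, TGACGTCA, was found in 2.80% of Zfp promoters and 3% of those of all genes tested. Such matches describe the sequence and do not show binding.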

How the data were processed

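Bulk RNA-seq of cerebellar GCE tissue from 2 WT and 2 Kdm3b+/- mice was examined, with 1 library per mouse, grouped by the genotype in the labels. The authors trimmed the reads, aligned them with STAR and quantified genes with StringTie, and the versions, the genome build and the annotation are not given in the sources used here. The deposited coverage gives the exonic read depth of each gene on average, as the authors' tool wrote it. The deposited FPKM was scaled by the authors to length and mapped fragments, and the deposited TPM to length and a fixed total. The aligned bases were computed from coverage and FPKM, and read counts were not recovered, since abundances were estimated on transcripts.

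TPM was summed per identifier and transformed to log2(TPM + 1). The study's count model was not used, because the tables hold no counts. Genes averaging 1 TPM or more entered a limma fit (version 3.58.1, R version 4.3.3; lmFit followed by eBayes, trend on) with genotype as the single term and Benjamini-Hochberg adjustment over all 13652 genes. The fit was tested on values simulated for the 13652 genes. Of genes changed by a log2 fold of 0.5, 1 and 2, 0%, 34.3% and 78.8% were called DEX, with 3 false calls. Of the identifiers, 99.6% lay on the chromosome given for GRCm38. KRAB and finger patterns were searched in translated GENCODE transcripts, because the RefSeq proteins named in the plan were not used here. Proteins were compared with blastp version 2.17.0, and the remaining steps ran in Python version 3.11.15 with pandas version 2.3.3, Biopython version 1.88 and Matplotlib version 3.10.9.

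The Zfp genes, the role lists and the lists of markers and H3K9 genes were chosen with earlier results of these data known. The genes named are Kdm3b, DEX genes, the 10 highest and 10 lowest log2 fold changes among Zfp genes whose groups did not overlap, the 5 highest in mean TPM, 3 on each side of the level of 2 TPM, those on chromosome 18 and the role lists. Genes named as members of clusters, families or overlaps, and single genes of the H3K9 list, were chosen after their values were seen. The alternatives were another pseudocount (0.1), FPKM, other filters and scalings, the highest entry per gene, other eBayes settings, a block for the replicate number, a loess correction for transcript length and GC content, a strict KRAB pattern, other levels for inclusion, and each library left out.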

Additional observations from a re-analysis of the deposited data

How the results depend on the processing

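No Zfp gene was DEX in any alternative without a replicate block. The replicate numbers in the labels pair no mice by design. Over the genes tested, the deviations of same-numbered mice from the mean of their genotype correlated at 0.121 (0.0178 after the length and GC correction). With the replicate block, 4 of 315 Zfp genes were DEX (Zfp365, Zfp385c, Zfp109 and Zfp983), beside 600 of all 13652 genes. With the correction and the block 2 of 310 were, beside 182 of 12904. In both settings the share of the Zfp genes was below that of all genes.

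The median log2 fold change of the Zfp genes, of all genes, of KRAB genes and of the others was -0.082, -0.010, -0.096 and -0.060 with FPKM, -0.083, -0.0045, -0.101 and -0.060 with median-ratio scaling, -0.045, 0.0053, -0.059 and -0.027 with quantile normalization, and -0.077, 0.0013, -0.121 and -0.021 with the length and GC correction, with or without the block. The Zfp genes higher at an unadjusted p under 0.05 numbered 6, 6, 7 and 8 under these scalings, 9 with the correction and the block, and 5 without the trend. Their shares ranged from 1.59% to 2.90%, beside 4.93% to 8.14% of all genes. Zfp genes lower at that p numbered 20 with quantile normalization (6.35%, beside 7.65% of all genes), and those lower without overlap numbered 87 (27.6%, beside 23.8%). Those higher without overlap numbered 46 with quantile normalization (14.6%, beside 26.5%) and 44 with the correction, with or without the block (14.2%, beside 24.6%). They numbered 14 with a mean TPM of at least 5 as filter (5.58%, beside 19.9%) or as level for inclusion. The cause of these differences was not tested.

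With each library left out in turn, the median ranged from -0.20 to -0.12 for the Zfp genes, from -0.10 to -0.04 for all genes, from -0.20 to -0.16 for KRAB genes and from -0.21 to -0.023 for the others. Zfp genes lower at p under 0.05 ranged from 13 (4.13%, without Kdm3b+/- mouse 1) to 61 (19.4%, without WT mouse 1), where all genes ranged from 4.41% to 17.5%, and those higher from 1 to 5 (0.317% to 1.59%, beside 2.94% to 7.98%). Zfp genes lower without overlap ranged from 177 to 214 (56.2% to 67.9%, beside 40.4% to 51.8% of all genes). Those higher without overlap ranged from 40 to 56 (12.7% to 17.8%, beside 27.6% to 32%). These counts are larger since 1 library then stands for a group, which is assumed to vary like the other. The log2 fold change of Kdm3b ranged from -0.40 to -0.15. All 20 Zfp genes with the highest and lowest values kept their direction in each alternative that gave them a value, between 13 and 16 per gene. Neither the filter on a mean TPM of 5 nor the correction gave one for every gene. Most of these alternatives could not reverse a direction. The genes were chosen for groups that do not overlap, so leaving out 1 library keeps the sign. The filters, the eBayes settings and the block alone leave the log2 fold change as it was. With 2 mice per genotype and low coverage of the lowest genes, small differences were not detectable.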
